A study of Mus musculus with 9 samples.

Results

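The genes described here are the syndecans and glypicans, the main families of heparan sulfate proteoglycans of the cell surface. They were found as the rows of the gene-level count table whose Entrez IDs map to Sdc1 to Sdc4 and Gpc1 to Gpc6, 10 of 24594 rows. RNA sequencing was done on BG2 cells, a line of mammary epithelial cells grown out from an endpoint tumour of the MMTV-Neu-IRES-Cre mouse (MMTV-NIC), in which the mammary tumour virus promoter drives the oncogene Neu and Cre from the same transcript. All 9 libraries share that transgenic background. The control group was a bulk population of wild-type BG2 cells (library names with NTC). The knockout groups were clone 1 and clone 2, both grown from a bulk population edited by CRISPR with guides against the Sox10 reading frame in exon 3 (library names with sgRNA2). Each group had 3 libraries that the labels call technical replicates. The control was not cloned and each knockout group was 1 clone, so the effect of the knockout and of picking a clone cannot be told apart, and p-values measure only the spread between libraries.

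Syndecans are transmembrane core proteins with short cytoplasmic tails that bind PDZ-domain proteins such as syntenin, and glypicans are held in the outer leaflet of the membrane by a GPI anchor. Both carry heparan sulfate chains, through which they hold growth factors such as FGFs, Wnts and Hedgehogs near their receptors and bind extracellular matrix. In epithelia, Sdc1 is the abundant syndecan of keratinocytes and mammary cells, Sdc4 sits in focal adhesions, Sdc2 is known from mesenchymal cells and Sdc3 from neural and muscle cells.

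Total counts were 65805296 to 83282841 per library, of which the 10 genes together took 0.111 to 0.143%. The targeted gene, Sox10, measured 241, 289.8 and 322 CPM in control libraries, with 0, 6 and 0 counts in those of clone 1 and 0, 2 and 2 in those of clone 2. CPM are read counts relative to the library total, as edgeR's cpm function gives them with TMM scaling (trimmed mean of M values). The epithelial label was checked on Epcam, Cdh1, Krt8, Krt18, Krt14, Krt5 and Trp63. Their summed level was 5145 to 6116 CPM (control), 1131 to 1284 CPM (clone 1) and 1493 to 1686 CPM (clone 2), with Epcam at 0 counts in clone 2. Of the 7, Epcam, Cdh1, Krt8 and Krt18 fell in both clones while the basal markers Krt14 and Trp63 rose in both. Fibroblast markers moved the other way, with a summed level of 9.16 to 10.6 CPM, 177 to 179.9 CPM and 107 to 116 CPM. Pdgfra held most of that sum, and Lum and Thy1 were at 0 counts in all 9 libraries. Of 5 endothelial markers only Kdr reached 1 CPM in a group, at 16.2 CPM in clone 1. Of 6 immune markers only Cd68 did, at 10.1 CPM (control), 9.80 (clone 1) and 38.6 (clone 2), with Ptprc at 0 counts in both clones, and adipocyte markers summed to at most 0.132 CPM. The part of these shifts in the results below was not tested. Fewer cells of a kind and less RNA per cell cannot be told apart in bulk RNA.

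The abundant Sdc1 and Sdc4 stayed within 1.18-fold of the control, Sdc2 and Gpc6 rose in both clones, and Gpc1 rose mainly in clone 2. Sdc3 and Gpc4 were at or next to 0 counts in clone 1 and higher than the control in clone 2. Gpc3 was near the counting floor, and Gpc2 and Gpc5 had 0 counts in every library. A gene was called where edgeR's quasi-likelihood test, fitted over all 9 libraries and adjusted by Benjamini-Hochberg over 13928 genes, gave an adjusted p under 0.05; 7 of the 10 genes passed the filter on low counts and were tested. In clone 1, 6 of these 7 were called against the control (3 higher, 3 lower), where 76.5% of all genes tested were called. In clone 2 it was also 6 of 7 (5 higher, 1 lower), against 74.4% of all genes. These counts lie near the background, so it is the sizes and directions of the single genes that are described. Without the libraries numbered 1, which stood apart from the other libraries of each group, the counts were again 6 and 6, and 4 between the clones with and without them. The median log2 fold change of the 4 syndecans was -0.16 in clone 1 and 0.17 in clone 2, and that of the 3 tested glypicans 0.29 and 1.39, beside 0.00248 and -0.00267 over all genes tested. The syndecan medians do not depend on how the 0 counts of Sdc3 are treated, since Sdc3 lies at an end of the order.

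**Figure D1:**
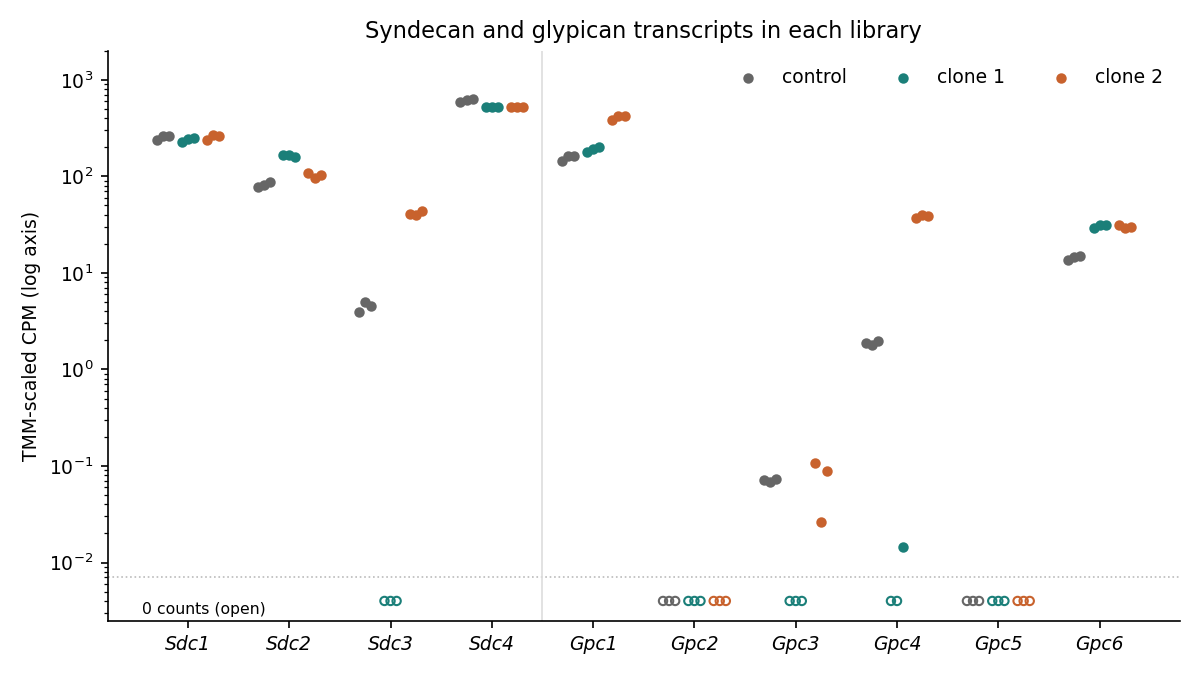
Level of each syndecan and glypican in the 9 libraries, as TMM-scaled CPM on a log axis; filled points are libraries with counts and open points at the bottom are libraries with 0 counts. Sdc3 and Gpc4 lie at or next to 0 in clone 1 and above the control in clone 2, while the points of Sdc1 overlap between the 3 groups.

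The upstream sequences of 3 syndecan genes are printed because Sdc3 had 0 counts in clone 1 while Sdc1 and Sdc4 were abundant in the same libraries. They come from RefSeq's promoter table (build GRCm38.p6), which held 7 of the 10 genes, with 250 bases before and 50 after each start; Sdc2, Gpc1 and Gpc6 had no entry. Capitals mark GC boxes, the letters GGGCGG on either strand. The stretches are the bases before the RefSeq start that lie in no GENCODE M21 exon of the same strand. That of Sdc1 is shorter because its GENCODE model begins upstream of the RefSeq start. For Gpc4 no sequence is printed, since all 300 bases of its window lie in an exon of its GENCODE M21 model, which begins further upstream than the RefSeq gene whose coordinates are given.
Sdc3 (chr4:130792287-130792536, plus strand): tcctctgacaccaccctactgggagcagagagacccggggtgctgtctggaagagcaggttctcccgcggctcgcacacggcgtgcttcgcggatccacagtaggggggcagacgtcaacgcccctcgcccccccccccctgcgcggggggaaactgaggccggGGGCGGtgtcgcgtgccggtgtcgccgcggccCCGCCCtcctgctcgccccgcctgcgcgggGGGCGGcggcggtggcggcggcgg
Sdc1 (chr12:8771146-8771322, plus strand): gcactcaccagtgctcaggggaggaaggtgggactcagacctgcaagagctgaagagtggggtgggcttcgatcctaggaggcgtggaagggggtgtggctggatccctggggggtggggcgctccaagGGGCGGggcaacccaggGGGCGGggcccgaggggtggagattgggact
Sdc4 (chr2:164443189-164443438, minus strand): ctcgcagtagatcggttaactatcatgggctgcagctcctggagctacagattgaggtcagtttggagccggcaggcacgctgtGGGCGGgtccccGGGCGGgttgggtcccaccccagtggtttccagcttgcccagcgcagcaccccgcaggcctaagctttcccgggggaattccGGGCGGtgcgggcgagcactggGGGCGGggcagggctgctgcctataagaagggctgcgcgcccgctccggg
The Sdc3 window was the richest of the 7 in CpG, with 44 CpG in 300 bases, a number that 98.1% of 32841 windows in the table do not exceed. Sdc4 and Gpc4 each had 22, Sdc1 had 14, and the median of all windows was 7. GC boxes were found in all 7 windows, 3 in Sdc3, 3 in Sdc1, 4 in Sdc4 and 1 in Gpc4, and 35.7% of all windows hold at least 1. Letters of the core that Sox proteins bind, searched as ACAAAG and ACAATG on both strands, were in 0 and 1 of the 7 windows, the latter in Gpc2, against 18.7% and 12.6% of all windows. The E-box CAGGTG, searched on both strands, was in 0 of 7, against 20.2%. These are matches of letters in 300 bases and say nothing of binding.

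Sdc1 and Sdc4, the most abundant syndecans of the control, changed least. Sdc1 (Entrez ID 20969; chromosome 12, 8771396 to 8793716, plus strand; all gene coordinates are RefSeq's, build GRCm38.p6) stood at 239, 259.6 and 259 CPM in control libraries, 225, 242 and 251 in those of clone 1 and 239, 265 and 261 in those of clone 2. The groups overlapped. Its log2 fold change was -0.08 ± 0.06 in clone 1 and 0.01 ± 0.06 in clone 2 (± approximate SE; adjusted p = 0.253 and 0.848, edgeR quasi-likelihood test with Benjamini-Hochberg adjustment, as for every adjusted p that follows). The sign in clone 2 turned with DESeq2 size factors, in DESeq2, with the stricter filter and with 3 of 9 single libraries left out. Sdc4 (Entrez ID 20971; chromosome 2, 164424247 to 164443188, minus strand), the focal adhesion syndecan, stood at 586, 624 and 639.9 CPM (control), 522, 524 and 524 CPM (clone 1) and 526, 518 and 520.0 CPM (clone 2). Every clone library lay below every control library, and the clones overlapped. It fell to the same small degree in both, with log2 fold changes of -0.24 ± 0.05 and -0.24 ± 0.05 (adjusted p = 0.000575 and 0.000492). The difference between the clones was -0.01 ± 0.05 (adjusted p = 0.929).

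Sdc2 (Entrez ID 15529; chromosome 15, 32920723 to 33034721, plus strand), the syndecan known from mesenchymal cells, was higher in both clones and highest in clone 1. Its levels were 77.0, 80.6 and 86.8 CPM (control), 167, 166 and 159.8 CPM (clone 1) and 108, 95.7 and 102 CPM (clone 2). The 3 groups did not overlap. The log2 fold change was 1.01 ± 0.06 in clone 1 and 0.32 ± 0.06 in clone 2 (adjusted p = 2.75e-08 and 0.000424), and clone 2 lay below clone 1 by 0.69 ± 0.06 on the log2 scale (adjusted p = 2.27e-06). Sdc2 shares chromosome 15 with Sox10. The median log2 fold change of the 581 tested genes of that chromosome was 0.29 in clone 1 and 0.25 in clone 2, beside 1.01 and 0.32 for Sdc2. The part of that shift in the rise of Sdc2 was not tested. The nearest tested genes on its sides, Sema5a and Cpq, rose in both clones (log2 fold changes 0.91 and 0.90 for Sema5a, 1.68 and 1.76 for Cpq). Farther out the directions were mixed. For example, Cct5 fell in both clones (-0.17 and -0.13) and Matn2 rose in both (0.71 and 0.31). The summed level of the fibroblast markers had the same order as Sdc2, lowest in the control and highest in clone 1, and its part in the rise was not tested.

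Sdc3 (Entrez ID 20970; chromosome 4, 130792537 to 130826318, plus strand), a syndecan of neural and muscle cells with a long ectodomain, went in opposite directions in the clones. It measured 3.96, 4.97 and 4.56 CPM in the control libraries, with 274, 368 and 369 counts. In clone 1 it had 0 counts in all 3 libraries, and in clone 2 it stood at 41.0, 39.5 and 43.3 CPM. Clone 1 was at least 319-fold lower than the control, computed against a floor of 3 counts over the group (0.0142 CPM). Clone 2 was 9.16-fold higher than the control, a log2 fold change of 3.20 ± 0.10 (adjusted p = 1.53e-09 for clone 1 and 3.07e-09 for clone 2). Between the clones the difference was at least 2916-fold (adjusted p = 4.44e-10). All 3 comparisons of Sdc3 also passed edgeR's glmTreat test against a log2 fold change of 1.

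Among the glypicans, Gpc1 (Entrez ID 14733; chromosome 1, 92831645 to 92860211, plus strand), the family member that dominates in these cells, rose a little in clone 1 and more in clone 2. It stood at 144, 161 and 163 CPM (control), 178, 194 and 200.2 CPM (clone 1) and 380.4, 421 and 426 CPM (clone 2), with no overlap between groups. The log2 fold changes were 0.29 ± 0.07 and 1.39 ± 0.07 (adjusted p = 0.00201 and 5.37e-09), and the difference between the clones was 1.10 ± 0.07 (adjusted p = 1.61e-07). The median of chromosome 1 was -0.29 in clone 1 and 0.05 in clone 2, and 0.33 for clone 2 minus clone 1. Gpc1 overlaps Ankmy1 on the other strand by 372 bases, but Ankmy1 held only 121 counts in all 9 libraries together, beside at least 9991 for Gpc1 in each.

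Gpc6 (Entrez ID 23888; chromosome 14, 116924920 to 117979529, plus strand), a glypican known from limb growth, rose about equally in both clones. It stood at 13.7, 14.8 and 14.8 CPM (control), 28.9, 31.3 and 31.4 CPM (clone 1) and 31.0, 29.5 and 29.8 CPM (clone 2). Both clones lay above the control and overlapped each other. The log2 fold changes were 1.08 ± 0.06 and 1.06 ± 0.06 (adjusted p = 3e-08 and 3.68e-08), with -0.02 ± 0.06 between the clones (adjusted p = 0.815). The median log2 fold change of chromosome 14 was 0.61 in clone 1 and 0.48 in clone 2, the highest of the 20 chromosomes in each clone, and the part of that shift in the rise of Gpc6 was not tested. Its neighbour on that chromosome, Gpc5 (Entrez ID 103978; chromosome 14, 115092201 to 116525192, plus strand), had 0 counts in all 9 libraries.

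Gpc4 (Entrez ID 14735; chromosome X, 52051007 to 52164923, minus strand), a glypican of progenitor and neural cells, was next to 0 in clone 1 and highest in clone 2, as Sdc3 was. It measured 1.88, 1.80 and 1.98 CPM in the control (130, 133 and 160 counts). Clone 1 held 0, 0 and 1 counts, so that without its replicate 3 no count is left, and clone 2 stood at 37.1, 39.7 and 39.1 CPM. Clone 1 was 400-fold lower than the control, with a 95% counting interval of 71.4 to 15840 (adjusted p = 5.08e-10). Clone 2 was 20.5-fold higher, a log2 fold change of 4.36 ± 0.11 (adjusted p = 1.58e-11). Against clone 1, clone 2 was 8179-fold higher (95% counting interval 1468 to 323100; adjusted p = 1.28e-11). All 3 comparisons also passed glmTreat. Of the 7 tested genes, glmTreat called 2 in clone 1 (Sdc3 and Gpc4), 3 in clone 2 (Gpc1 as well) and 2 between the clones, against 25.7%, 24.3% and 8.52% of all genes. The level of Cd68 was likewise highest in clone 2, and its part in the rise of Sdc3 and Gpc4 there was not tested.

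Gpc3 (Entrez ID 14734; chromosome X, 52272426 to 52613974, minus strand), an oncofetal glypican next to Gpc4 on the X chromosome, was at the edge of detection. Its counts were 5, 5 and 6 in the control, 0 in each library of clone 1 and 9, 2 and 7 in clone 2, so it was too low to be tested. Against the floor of 3 counts over the group, clone 1 was 5.04-fold below the control and 5.36-fold below clone 2. These ratios leave out the counting error of the 16 counts of the control and the 18 of clone 2. With no filter on low counts it was tested and called lower in clone 1. Gpc2 (Entrez ID 71951; chromosome 5, 138273657 to 138280026, minus strand) had 0 counts in all 9 libraries, which allows up to 0.0142 CPM in a group. Counting intervals and floors cover counting error only, and a floor covers only that of the group at 0 counts.

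Sdc3 and Gpc4 were lower in clone 1 and higher in clone 2, where 2.81% of all genes tested were called in those directions. Sdc2, Gpc1 and Gpc6 were higher in both clones (3 of 7, against 28.7% of all genes), and Sdc4 was lower in both (1 of 7, against 29.4%). In all, 4.79% of genes were called in opposite directions. Between the clones directly, 4 of the 7 tested genes were called, where 57.6% of all genes were: Sdc3, Gpc4 and Gpc1 were higher in clone 2, and Sdc2 was lower (30.1% of all genes were higher and 27.5% lower). A pattern chosen after its values were seen, with at most 3 counts over clone 1, at least 1 CPM in the control and a call of higher in clone 2, was met by 5 of 13928 genes (0.0359%). These were Sdc3, Gpc4, Gata4, a transcription factor of endoderm and heart, Abcg2, a drug efflux pump, and Tdrp, and they lie on 5 different chromosomes. Both comparisons against the control use the same control libraries, so they are not independent. The comparison between the clones does not use them.

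The genes around Gpc4 were examined after their values were seen, to describe whether low levels in clone 1 extended along the chromosome. The nearest tested genes were Phf6, a chromatin protein 747 kb away, with log2 fold changes of 0.40 (clone 1) and -0.01 (clone 2), and Mbnl3, a splicing regulator 845 kb away, with 0.02 and -0.58. Hprt, a housekeeping gene, had 0.12 and 0.04, and Plac1 fell in both clones (-5.26 and -3.33). Among the 5 nearest tested genes on each side, C430049B03Rik (-1.62 and -0.87), Firre (-0.38 and -0.57) and Rbmx2 (-0.28 and -0.06) were also called lower in clone 1. The others, Plac1 aside, were not called in clone 1. Of all genes tested, 38.6% were called lower and 37.9% higher there. Gpc3, which lies between Gpc4 and Phf6, was also at 0 counts in clone 1. The median log2 fold change of the X chromosome was 0.04 in clone 1 and -0.13 in clone 2, and that of chromosome 4, which holds Sdc3, was -0.49 and -0.53.

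**Figure D2:**
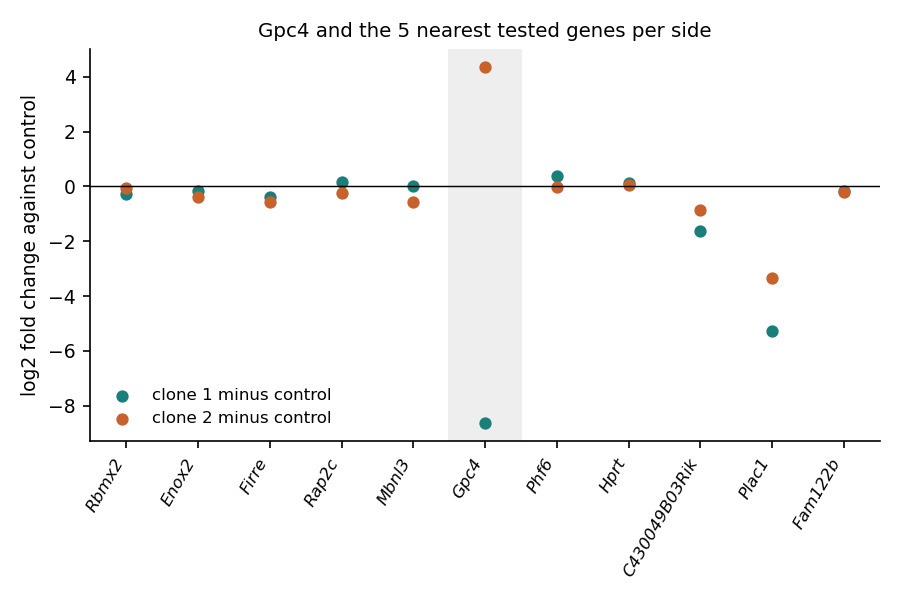
Log2 fold change against the control for Gpc4 and the 5 nearest tested genes on each side, in chromosome order, for clone 1 and clone 2. The Gpc4 point of clone 1 is the ratio of counts; it lies below and the Gpc4 point of clone 2 above every gene beside it, of which Plac1 stands farthest from 0.

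Levels of different genes were compared per kb of annotated exons. In the control the order was Sdc4 (242 CPM per kb), Sdc1 (66.3), Gpc1 (30.3), Sdc2 (23.1), Gpc6 (2.25), Sdc3 (0.751) and Gpc4 (0.711). Of these neighbours only Sdc3 and Gpc4 overlapped between libraries. In clone 1, Sdc2 (46.5 CPM per kb) stood above Gpc1 (37.0), with no overlap, and Sdc3 and Gpc4 stood at 0 and 0.00180. The place of Gpc1 depends on the length used. Its exons span 5159 bases and its longest transcript 4176, while both are 3527 for Sdc2. The order by longest transcript was not tested. In clone 2, Gpc1 (79.3 CPM per kb) stood above Sdc1 (66.9), and Gpc4 (14.6) and Sdc3 (6.89) above Gpc6 (4.69), again with no overlap. Sdc4 was the first in every group, and made up 72.9% of the summed syndecan level in the control, 65.3% in clone 1 and 66.6% in clone 2. The share of Sdc2 was 6.95%, 14.8% and 9.40%. Gpc1 made up 91.0%, 88.6% and 80.4% of the glypican level, and Gpc4 went from 2.14% in the control to 14.8% in clone 2.

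The summed syndecan level was 315, 337 and 345 CPM per kb (control), 311, 316 and 317 (clone 1) and 307, 307 and 309 (clone 2). Clone 1 overlapped the control, and clone 2 lay just below it. The log2 ratio to the control was -0.08 in clone 1 (p = 0.3, exact permutation test, 2-sided, n = 3 per group) and -0.11 in clone 2 (exact p = 0.1). The summed glypican level was 30.8, 34.3 and 34.6 CPM per kb (control), 39.1, 42.4 and 43.7 (clone 1) and 92.6, 101 and 102 (clone 2). Each glypican sum of a clone lay above every control library, and clone 2 above clone 1. The log2 ratio to the control was 0.33 in clone 1 and 1.57 in clone 2, and 1.24 between the clones (exact permutation p = 0.1 in each). With 3 libraries against 3 the test cannot go below 0.1, so none of these sums could pass 0.05.

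**Figure D3:**
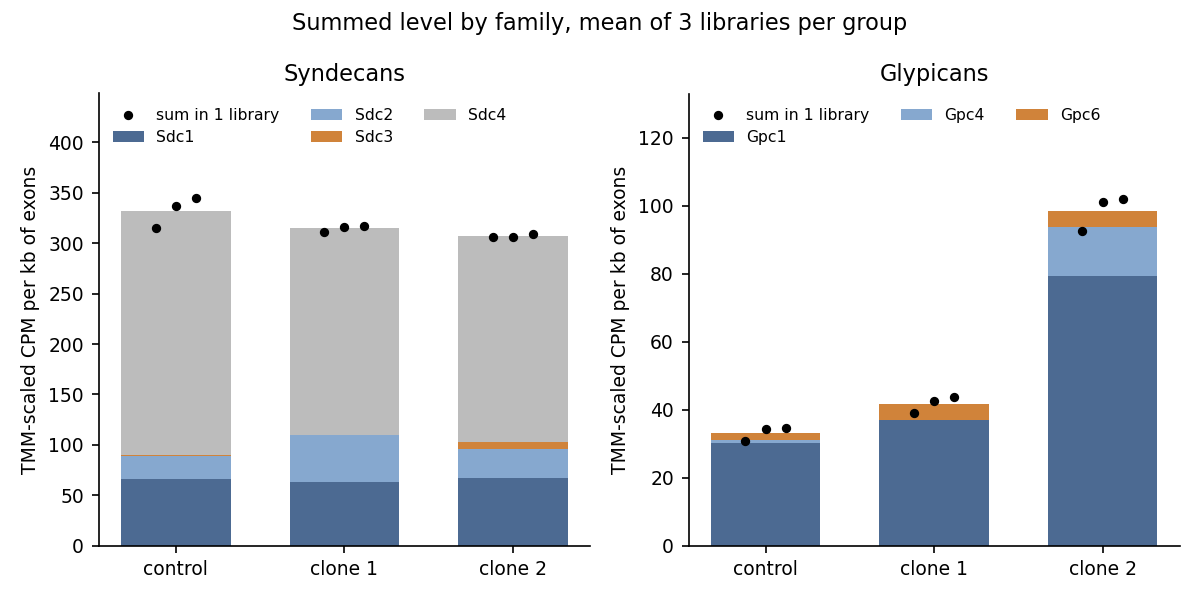
Summed level of the syndecans (left) and glypicans (right) in CPM per kb of exons, with stacked bars for the group means of single genes and black points for the sum in each of 3 libraries; Gpc2, Gpc3 and Gpc5 are too low to draw. Syndecan bars are of similar height and mostly Sdc4, while the glypican bar of clone 2 is higher than the others and holds a visible part of Gpc4.

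For each tested gene, the genes with the most similar pattern were sought among 10455 others at 5 CPM or more in a group, by the Euclidean distance of log2 CPM centred on the mean over the 9 libraries. For Sdc3 they were Tdrp (distance 1.98) and Gata4 (2.43), and for Gpc4 they were Tdrp (1.70) and Fxyd6 (2.26). Tdrp was thus the nearest to both. These distances depend on the prior count of 2 that stands in for 0. The distances were smaller for genes that changed less: Susd6 (0.143) for Sdc2, Aff1 (0.114) for Gpc6, Pomk (0.223) for Gpc1, Tfip11 (0.0761) for Sdc1 and Eif4h (0.0737) for Sdc4. Nothing about shared function or control follows from these distances.

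The sugar chains of these core proteins are built on a linker of 4 sugars, polymerised by the exostosins, and then sulfated. The 35 genes of these pathways named by rule were called in both clones, with an adjusted p of at most 0.0216 in clone 1 (Extl1) and 0.000497 in clone 2 (Bpnt2), except Bpnt2 in clone 1 (adjusted p = 0.417). Values after each gene are log2 fold changes ± approximate SE, clone 1 before clone 2. All 5 exostosin genes were tested, of which 4 rose in clone 1 and 5 in clone 2, with median log2 fold changes of 0.72 and 0.62; over all genes tested 37.9% and 37.3% were called higher, with medians of 0.00248 and -0.00267. Ext2, a subunit of the chain polymerase, had log2 fold changes of 0.72 ± 0.07 and 0.62 ± 0.07. Ext1, its partner subunit, was called in clone 2 only (-0.03 and 0.53). Extl2, a relative that acts on the linker, had 1.13 ± 0.06 and 1.32 ± 0.06. Extl1 was scarce outside clone 2, at 0.107 CPM (control), 0.255 (clone 1) and 6.49 (clone 2). The control average lay under the filter's minimum count of 10, so Extl1 was tested only through the clones. Its calls of higher therefore add no support to the counts of rising exostosin genes. Its clone 1 value did not pass once control replicate 2 (log2 fold change 0.78) or clone 1 replicate 3 (0.97) was left out, nor in the fit of those 2 groups alone (1.24). Of 6 tested linker enzymes of 7, 5 fell and 0 rose in clone 1, with 0 past glmTreat, and 3 fell and 1 rose in clone 2, with 1 past it (medians -0.37 and -0.33; 38.6% and 37.1% of all genes were called lower). The clone 2 count of lower calls lies near that background, and Pxylp1, a xylose phosphatase named after its values were seen, rose there (0.95). B3gat3, which adds the last linker sugar, had -1.06 ± 0.07 and -0.91 ± 0.07, B4galt7, which adds the galactose next to xylose, -0.20 ± 0.07 and -1.17 ± 0.07, and B3galt6, which adds the following galactose, -0.54 ± 0.09 and -0.59 ± 0.09. Leaving out control replicate 3 or clone 1 replicate 3 (-0.17 each) ended the clone 1 call of B4galt7.

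Of 10 tested heparan sulfate modifying enzymes of 18, clone 1 had 7 higher and 2 lower, against 7 and 2 for clone 2 (medians 0.59 and 0.73). Over all genes tested, 37.9% were called higher and 38.6% lower in clone 1, and 37.3% and 37.1% in clone 2. The 3-O-sulfotransferases went both ways. Hs3st1, the isoform known for making the antithrombin-binding site, averaged 35.6 CPM (control), 0.0836 (clone 1) and 0.0518 (clone 2), with log2 fold changes of -8.68 ± 0.33 and -9.41 ± 0.35. With so few counts left, these sizes moved to -9.66 without clone 1 replicate 3 and to -10.42 without clone 2 replicate 2. Hs3st3b1, known for sites that viral glycoprotein D binds, averaged 2.49 CPM (control), 43.2 (clone 1) and 53.1 (clone 2), with 4.11 ± 0.07 and 4.41 ± 0.07. Sulf2, an extracellular enzyme that removes 6-O-sulfate, averaged 186 CPM (control), 982 (clone 1) and 669 (clone 2), with 2.40 ± 0.09 and 1.85 ± 0.09. Glce, the epimerase, and Ndst2, an N-sulfotransferase, also rose in both clones; Ndst1, the more abundant N-sulfotransferase, had 0.30 and -0.09 and was called in clone 1 only. Ndst3, the other tested N-sulfotransferase, fell in both, averaging 4.90 CPM (control), 0 (clone 1) and 0.00851 (clone 2). These 4 genes and Ext1 were named after their values were seen.

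Enzymes of chondroitin and dermatan sulfate, the other chains that syndecans can carry, went both ways. Of 13 tested of 16, clone 1 had 7 higher and 5 lower, against 6 and 6 for clone 2 (medians 0.34 and 0.31). Among all genes tested, 37.9% (clone 1) and 37.3% (clone 2) were called higher, and 38.6% and 37.1% lower. Chst7, a chondroitin 6-O-sulfotransferase named after its values were seen, fell from 3.45 CPM in control cells to 0 counts in every library of both clones. Dse, the dermatan sulfate epimerase, had log2 fold changes of 4.85 ± 0.13 and 4.32 ± 0.12, Chst11, a chondroitin 4-O-sulfotransferase, 4.34 ± 0.08 and 4.15 ± 0.08, and Ust, which sulfates uronic acid, 2.45 ± 0.06 and 2.49 ± 0.06. Of 7 tested genes of sulfate donor supply of 8, clone 1 had 1 higher and 3 lower, against 2 and 4 for clone 2 (medians -0.15 and -0.53). Slc26a2, a sulfate carrier of the plasma membrane, had 1.83 ± 0.08 and 0.42 ± 0.07, and Papss1, a synthase of the sulfate donor, -0.37 ± 0.06 and -0.61 ± 0.06. Bpnt2, a phosphatase of the Golgi, had 0.15 ± 0.16 and -0.85 ± 0.16 and was called in clone 2 only.

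Of 15 tested genes, of 17, that shed, release or degrade these proteoglycans, clone 1 had 9 higher and 4 lower. Clone 2 had 10 and 1 (medians 0.25 and 0.67). Beside them, 37.9% of all genes tested were called higher and 38.6% lower in clone 1, and 37.3% and 37.1% in clone 2. Hpse, heparanase, which cuts the chains, averaged 0.163 CPM (control), 9.83 (clone 1) and 9.02 (clone 2), with log2 fold changes of 5.89 ± 0.19 and 5.76 ± 0.19. Mmp14, a membrane protease that can shed Sdc1, averaged 1.42 CPM (control), 74.3 (clone 1) and 26.3 (clone 2), with 5.71 ± 0.10 and 4.21 ± 0.10. Notum, a secreted carboxylesterase that inactivates Wnt and was once thought to release glypicans, averaged 10.9 CPM (control), 160.4 (clone 1) and 56.5 (clone 2), with 3.88 ± 0.10 and 2.37 ± 0.09. Of the sheddases Adam10 and Adam17, chosen to be named after their values were seen, Adam10 rose in both clones (0.97 and 0.88) and Adam17 had 0.03 and -0.27, called in clone 2. Timp3 and Hpse2 were too low to test.

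Of 4 tested secreted heparan sulfate proteoglycans, of 7, 1 rose and 3 fell, in each clone. The shares of all genes tested were 37.9% higher and 38.6% lower in clone 1, and 37.3% and 37.1% in clone 2. Hspg2, which encodes perlecan of basement membranes, averaged 6.90 CPM (control), 146 (clone 1) and 132 (clone 2) (log2 fold changes 4.40 ± 0.15 and 4.25 ± 0.15). Agrn, agrin, averaged 669 CPM (control), 59.7 (clone 1) and 57.0 (clone 2) (-3.49 ± 0.07 and -3.55 ± 0.07), and Col18a1, collagen XVIII, had -2.00 ± 0.07 and -1.79 ± 0.07. A further list held 9 surface proteins that carry sugar chains part of the time or carry chondroitin sulfate, of which 4 were tested. Clone 1 had 2 higher and 2 lower, against 1 and 2 for clone 2. Tgfbr3, betaglycan, had 1.97 ± 0.06 and 2.04 ± 0.06, Cd44, the hyaluronan receptor, -0.91 ± 0.04 and -0.74 ± 0.04, and Nrp1, neuropilin 1, 0.60 ± 0.06 and -0.34 ± 0.06, in opposite directions.

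Inside the cell, of 15 partners of syndecan tails and their links to the cytoskeleton, clone 1 had 3 higher and 8 lower. Clone 2 had 5 and 9 (medians -0.14 and -0.47). For all genes tested the shares were 37.9% higher and 38.6% lower in clone 1, and 37.3% and 37.1% in clone 2. Sdcbp, syntenin, which binds the tails through PDZ domains, had -0.88 ± 0.10 and -1.08 ± 0.10, and its relative Sdcbp2 -4.50 ± 0.21 and -4.27 ± 0.20. Tiam1, a Rac activator that binds syndecan tails, averaged 0.883 CPM (control), 42.9 (clone 1) and 92.4 (clone 2), with 5.59 ± 0.14 and 6.70 ± 0.14. Of 27 genes of GPI anchor assembly, on which glypicans depend, clone 1 had 12 higher and 11 lower, against 12 and 9 for clone 2, with medians of 0.03 and 0.05. Pigv and Pigo, transferases of the anchor's mannose and ethanolamine phosphate, had -1.63 ± 0.13 and -1.91 ± 0.13 (Pigv) and -1.43 ± 0.08 and -1.27 ± 0.08 (Pigo), and Pigp, a subunit of the enzyme of the opening step, 1.16 ± 0.09 and 1.48 ± 0.09.

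Of the growth factors that heparan sulfate binds, 15 of 24 were tested. In clone 1, 4 rose and 9 fell, and in clone 2, 5 rose and 9 fell (medians -0.51 and -0.42). Of all genes tested, 37.9% rose and 38.6% fell in clone 1, and 37.3% and 37.1% in clone 2. Fgf2 averaged 0.545 CPM (control), 14.3 (clone 1) and 13.6 (clone 2) (log2 fold changes 4.72 ± 0.22 and 4.65 ± 0.21), Pdgfb had -3.41 ± 0.11 and -3.19 ± 0.11, and Pgf, placental growth factor, averaged 14.7 CPM (control), 0.0101 (clone 1) and 0.0248 (clone 2). Of 5 tested FGF receptor and coreceptor genes of 7, clone 1 had 2 higher and 1 lower, against 1 and 1 for clone 2. Fgfr1, which needs heparan sulfate to bind Fgf2, averaged 31.3 CPM (control), 410.4 (clone 1) and 347 (clone 2) (3.71 ± 0.08 and 3.47 ± 0.08). Fgfr2, whose epithelial splice form is read by mammary cells, averaged 39.9 CPM (control), 5.26 (clone 1) and 14.0 (clone 2) (-2.92 ± 0.10 and -1.51 ± 0.09).

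**Figure D4:**
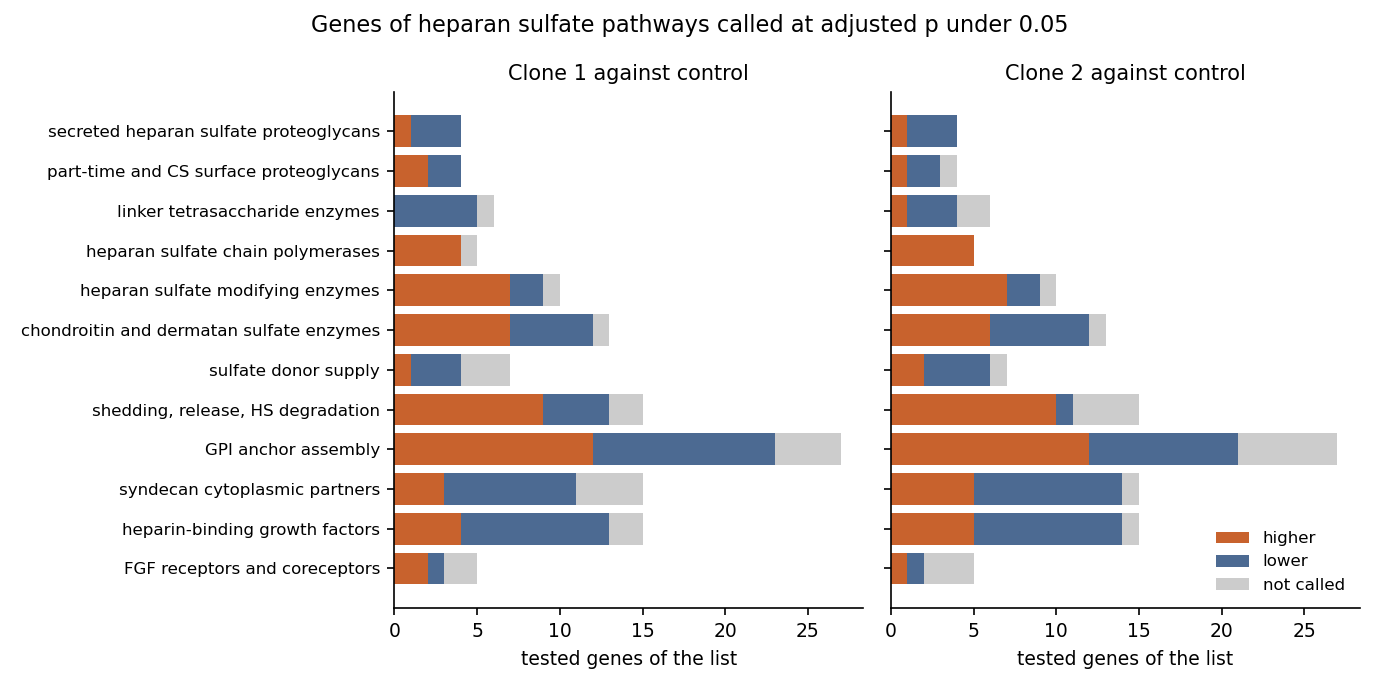
Number of tested genes of each list that were called higher (orange), lower (blue) or not called (grey) against the control, for clone 1 (left) and clone 2 (right). The bar of heparan sulfate chain polymerases holds no blue in either panel, and the linker enzymes of clone 1 hold no orange. The orange of the polymerases includes Extl1, which was tested only through the clones. Among all genes tested, 37.9% were higher and 38.6% lower in clone 1, and 37.3% and 37.1% in clone 2.

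**Figure D5:**
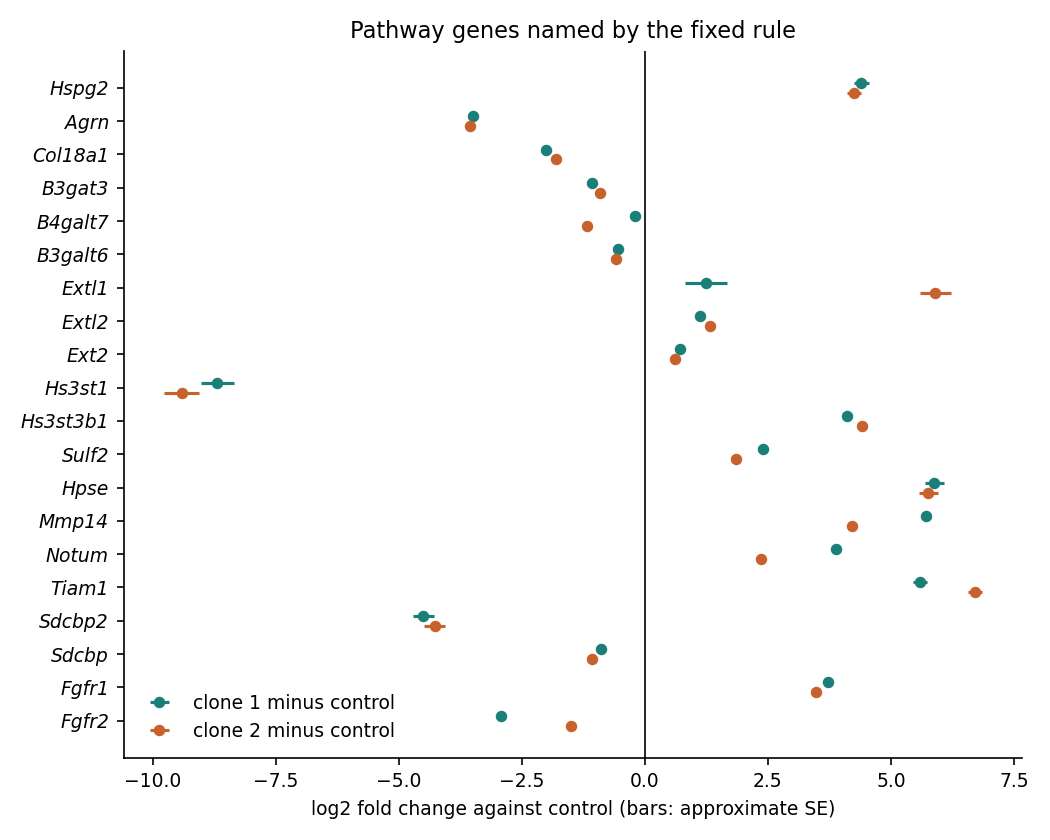
Log2 fold changes against the control of the named genes of 7 lists, with bars for the approximate SE; green is clone 1 and orange clone 2. Both clones lie on the same side of 0 for each gene shown. This does not hold for all named genes of the lists not drawn: Nrp1 (0.60 and -0.34) and Bpnt2 (0.15 and -0.85) lie on opposite sides. Pgf, also not drawn, lies at -10.4 in clone 1, below every gene shown. Among the genes shown, Hs3st1 is lowest in both, and the highest point is Hpse in clone 1 and Tiam1 in clone 2.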

How the data were processed

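The authors deposited 1 table of raw read counts per Entrez gene for 9 libraries; fastp, Subread and DESeq2 and the builds mm10 and GRCm38 are named per the submitters' processing notes, with no version, setting, annotation or strand; those are not given in these sources. All rows were genes. Symbols, gene coordinates and promoter windows came from RefSeq (GRCm38.p6), and exon lengths and exon bounds from GENCODE M21 (GRCm38). Genes passed edgeR's filterByExpr (minimum count 10), were scaled by TMM and tested by the quasi-likelihood test in 1 fit of 3 groups (edgeR 4.0.16, limma 3.58.1, R 4.3.3), with Benjamini-Hochberg adjustment; the test was checked on simulated counts. Floors were 3 counts over a group, and counting intervals were exact (95%). Replicates of a group differed by more than sampling noise. The 10 genes, the pathway lists and the marker lists were chosen with earlier results of these data known. Named were all 10 genes, Sox10, and of each list up to 3 tested genes with the largest mean absolute log2 fold change over both clones among those called in a clone and at 5 CPM or more in a group; for each of the 10 genes at 5 CPM or more, the 2 nearest patterns were listed. Alternatives were other scalings, filters, DESeq2 1.42.0, a threshold on size, a replicate block, pairs of groups and libraries left out. 1 further result is not reported here.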

Additional observations from a re-analysis of the deposited data

Results flagged for a closer look

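Each of the following genes differed between the clones by more than a log2 fold change of 1 in edgeR's glmTreat test, with Benjamini-Hochberg adjustment over all genes tested. For Sdc3 the fitted log2 difference of clone 2 minus clone 1 was 14.59 (adjusted p = 7.97e-10), and for Gpc4 it was 12.56 (adjusted p = 2.05e-11). Both fitted values depend on the prior count, since clone 1 held 0 counts of Sdc3 and 1 count of Gpc4, and the bound and the interval in the results are the sizes to use. Extl1, a glycosyltransferase of the exostosin family, was higher in clone 2 by 4.66 (adjusted p = 7.86e-07), and Fgfr2 by 1.42 (adjusted p = 0.00217). The log2 difference was -1.41 for the sulfate carrier Slc26a2 (adjusted p = 0.000356), -1.50 for the protease Mmp14 (adjusted p = 8.96e-05) and -1.51 for Notum (adjusted p = 0.000189), all lower in clone 2. Each direction held in 3 of 3 libraries against 3 of 3. The genes were picked by the test on these same libraries, so this adds no support. These genes were lower or higher than the control in the same direction in both clones, except Sdc3 and Gpc4.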

How the results depend on the processing

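Counts of the 10 genes called were 6 to 7 in clone 1, 6 in clone 2 and 4 to 5 between the clones under other scalings, filters, DESeq2, a replicate block, pairs of groups and single libraries left out (6, 6 and 4 without each library in turn). With glmTreat at a log2 fold change of 1 they fell to 2, 3 and 2, since it asks for a larger change. With no filter, 8 of the 10 were tested and Gpc3 was the added call. The log2 fold change of Sdc1 in clone 2 turned to -0.00714 with DESeq2 size factors and with DESeq2 and to -0.0174 with the stricter filter, and ran from -0.0489 to 0.0604 with 1 library left out. The small clone differences of Sdc4 and Gpc6 turned to 0.00586 with total counts (Sdc4) and ran from -0.0579 to 0.000957 with 1 library left out (Gpc6). The clone 1 value of Bpnt2 ran from -8.27e-05 to 0.294 with 1 library left out. None of these values passed the test in any of those settings, and the causes were not tested. Scaling moved the median of all genes by less than 0.1 (log2), to -0.02 at most. Correlations of same-numbered libraries ran from 0.014 to 0.25, and those of differently numbered libraries from -0.21 to 0.13. The libraries numbered 1 correlated best with each other (0.21 to 0.25). Not every library numbered 2 or 3 correlated best with its own number, so the numbers were not taken as pairs. With the replicate block, genes called rose from 10653 to 11420 in clone 1, from 10367 to 11257 in clone 2 and from 8018 to 9439 between the clones. It called 6, 6 and 5 of the 10, adding Sdc1 between the clones (0.09, adjusted p = 0.0298), called Bpnt2 in clone 1 (0.15, adjusted p = 0.0146) and changed no other call of the genes named. The summed syndecan and glypican levels kept their direction under every alternative tried for them. Depth limits Gpc3, Gpc2 and Gpc5, at or under 9 counts per library.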
